A study of Mus musculus with 9 samples.

Results

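The antioxidant and glutathione defence genes described here are 41 genes that remove superoxide and peroxides, keep thiols reduced, make and use glutathione, or bind metals. They were chosen by name, from a list of superoxide, peroxide, thioredoxin, glutathione, metallothionein and *Nfe2l2* pathway genes, and matched by exact symbol. All 41 were found among the 24356 gene symbols of each expression file. Each was above 0 in every library, so that all 41 are among the 14675 genes tested and none was lost to the filter on low values. The study asked how the transcriptome of brown adipose tissue (BAT), the heat-producing fat depot, differs in long-lived mice without growth hormone releasing hormone. Stress defence is known to be raised in other tissues of mice that lack growth hormone, which is why KO and WT are compared here for these genes. There are 9 libraries, each from the BAT of 1 mouse: 2 female and 2 male mice labelled GHRH-KO, in which the *Ghrh* gene is disrupted in the whole animal, and 3 female and 2 male littermates labelled wild-type (WT). Every mouse had a mixed C57BL6/129SV background. All were kept on standard chow without restriction, no drug is named, and the labels give no age.

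Cells turn superoxide into hydrogen peroxide with superoxide dismutases, and catalase, the glutathione peroxidases and the peroxiredoxins then remove the peroxide. Peroxiredoxins are reduced again by thioredoxin, and most glutathione peroxidases by glutathione, with thioredoxin reductase and glutathione reductase drawing on NADPH. *Nfe2l2* encodes the transcription factor NRF2, which KEAP1 holds in check and which switches on many of these enzymes when thiols are oxidised. BAT is rich in mitochondria, whose respiratory chain is a source of superoxide.

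Expression is given as FPKM, in which fragments are divided by library size and by transcript length, so that levels of different genes can be set side by side. The sum of FPKM ran from 380558 to 443569 per library, and the relative depth estimated from low values from 0.915 to 1.14. Brown adipocyte markers were high everywhere, with *Ucp1*, the uncoupling protein of brown fat, at 1357 FPKM or more in every library. The targeted gene ran against the labels. *Ghrh* (chr2:157329497-157347506, GRCm38) had 0.233 to 0.846 FPKM in the 4 libraries labelled KO, while each of the 5 labelled WT listed it at 0. The two-sided exact permutation p of that difference was 0.00794, the lowest value that 4 against 5 libraries allow, and which part of the locus these reads come from was not tested. *Ghr*, the growth hormone receptor, averaged 46.8 ± 5.08 FPKM with the KO label and 94.2 ± 36.6 FPKM with the WT label, with no overlap (SD, exact permutation p 0.0159, limma adjusted p 0.0660). *Igf1*, which growth hormone induces, averaged 1.33 ± 0.784 and 4.80 ± 2.66 FPKM (exact permutation p 0.0317, limma adjusted p 0.0661). Both were lower with the KO label, and the study also reported *Igf1* as higher in WT, short of its threshold. Every direction here therefore takes the labels as given, as the libraries labelled KO minus those labelled WT, and KO and WT stand for these labels. KO male 1 stood apart: its Spearman correlations with the others were 0.924 to 0.934, against 0.958 to 0.991 among the rest. Its lymphocyte markers summed to 222 FPKM (2.3 to 5.6 elsewhere) and its macrophage markers to 553 FPKM (43.4 to 166 elsewhere). Its skeletal muscle markers summed to 12715 FPKM (449 to 6485 elsewhere) and its cycling cell markers to 6.87 FPKM (0.312 to 1.28 elsewhere). Results that turn on this library are given with and without it.

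The levels of the 41 genes spanned a wide range. The highest were *Gpx3*, the secreted glutathione peroxidase, with a median of 1237 FPKM over the 9 libraries, and *Gpx4*, which reduces lipid peroxides, at 876 to 1176 FPKM. *Sod1*, the copper-zinc superoxide dismutase of the cytosol, followed at 682 to 936 FPKM. The peroxide enzymes *Cat*, *Prdx1*, *Prdx3*, *Prdx5* and *Gpx1* lay lower, from 156 FPKM in the lowest *Prdx1* library to 518 FPKM in the highest *Prdx5* library. The lowest were *Nqo1*, a quinone reductase, at 0.834 to 1.54 FPKM, and *Gpx7*, a peroxidase of the endoplasmic reticulum, at 2.00 to 4.90 FPKM. Glutathione synthesis was low as a group, with medians of 6.21 to 13.0 FPKM for its 3 genes. Most members varied little between animals. *Txn2* differed by 1.18-fold between its lowest and highest library, whereas *Gsta3* differed by 11.5-fold and *Mt2* by 5.04-fold.

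**Figure D1:**
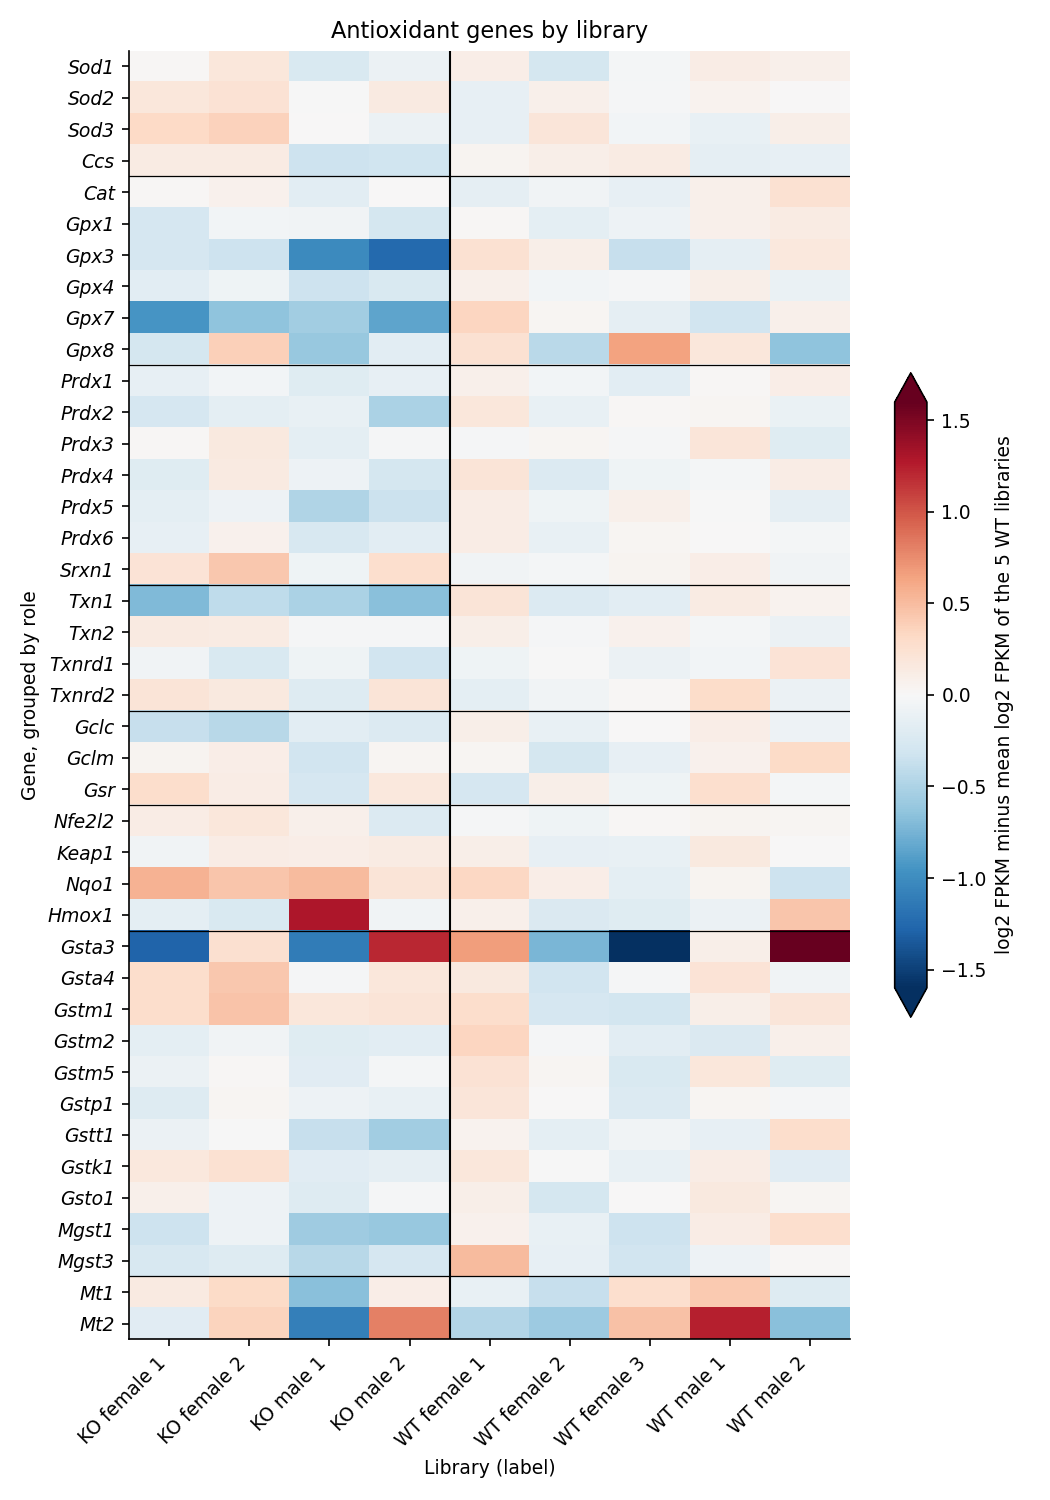
Heat map of the 41 genes (rows, grouped by role, with black lines between roles) in the 9 libraries (columns, the 4 labelled KO to the left of the vertical line). Colour is log2 FPKM minus the mean log2 FPKM of the 5 libraries labelled WT, and values past the ends of the colour bar take its end colours. *Txn1*, *Gpx3* and *Gpx7* are blue across the KO columns, while *Gsta3* and *Mt2* change colour from library to library within both genotypes.

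The main comparison was KO against WT with the sexes averaged. Of the 41 genes, 2 were lower in KO (*Txn1* and *Gpx3*) and 0 were higher at a limma adjusted p under 0.05, with p adjusted by Benjamini-Hochberg over all 14675 genes. Over all genes, 529 passed (3.6%), 319 lower (2.17%) and 210 higher (1.43%), and with each library centred on its median the split was 92 lower and 130 higher. A count of 2 among 41 is close to that background. At an unadjusted p under 0.05, 9 members were lower (14.2% of all genes) and 1, *Nqo1*, was higher (5.99% of all genes). The median difference of the members was -0.07 on the log2 scale, and the median of all genes was also -0.07. A negative difference was found for 28 of the 41 members (68.3%) and for 62.5% of all genes. For 3 members, *Txn1*, *Gpx7* and *Gclc*, every library labelled KO lay below every library labelled WT (6.04% of all genes), and for 0 members did the KO libraries all lie above (3.03% of all genes).

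Marker genes of other cell types moved with the labels as well. All 12 skeletal muscle markers had positive differences and 3 passed the test. They summed to 6397, 2780, 12715 (KO male 1) and 6485 FPKM in KO and to 449 to 2404 FPKM in WT. Of 10 fibroblast and progenitor markers 9 were negative and 4 passed the test, with sums of 165 to 279 FPKM in KO and 215 to 374 FPKM in WT. White adipocyte markers summed to 34.3 to 89.8 FPKM in KO and 79.6 to 321 FPKM in WT, with 1 of 5 lower and *Hoxc10* listed at 0 in all libraries. Limma called 0 of the 9 brown adipocyte markers, and at an unadjusted p under 0.05 3 were higher and 2 lower. Of the macrophage and erythroid markers 1 of 9 and 1 of 4 were lower, and all 13 differences of these lists were negative. Macrophage markers summed to 54.8, 43.4, 553 (KO male 1) and 50.5 FPKM in KO and to 69.4 to 166 FPKM in WT. Erythroid markers summed to 246 to 500 FPKM in KO and 356 to 972 FPKM in WT. Limma called 0 of 7 endothelial markers (3 lower at an unadjusted p under 0.05). The part of these markers in the differences reported here was not tested. In bulk tissue, fewer cells of a type and less RNA per cell cannot be told apart.

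In the thioredoxin system, *Txn1* was lower in KO and the other 3 genes did not pass the test. *Txn1* (chr4:57943373-57956411, minus strand) encodes the cytosolic thioredoxin that reduces peroxiredoxins and other disulfides. The KO females had 52.4 and 64.4 FPKM and the KO males 60.0 and 54.0 FPKM, against 98.4, 73.3 and 76.0 FPKM in WT females and 94.0 and 88.7 FPKM in WT males. The highest KO library lay below the lowest WT library, and both sexes were alike in this. The means were 57.7 ± 5.53 FPKM in KO (SD, n = 4) and 86.1 ± 11 FPKM in WT (n = 5), so that KO reached 67.0% of WT. The log2 difference was -0.59 (SE 0.11, 95% interval -0.85 to -0.33, limma adjusted p 0.0392). The call was kept without KO male 1 (adjusted p 0.0496) or KO male 2 (0.0475) in limma. It was lost when any 1 of the other 7 libraries was left out: KO female 1 (0.155), KO female 2 (0.0904), WT female 1 (0.0688), WT female 2 (0.0863), WT female 3 (0.0795), WT male 1 (0.0629) or WT male 2 (0.101). It was also lost with no filter (0.0580), median centring (0.0826), array weights (0.0831), no mean-variance trend (0.0768) and ordinary least squares (0.109). Only 2.50% of the 50-base stretches of *Txn1* transcripts also occur in another annotated gene.

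The partner genes varied less. *Txnrd1*, the cytosolic reductase that recharges TXN1, stood at 14.2 to 17.0 FPKM in KO and 16.4 to 20.5 FPKM in WT (log2 difference -0.18, SE 0.09, limma adjusted p 0.320). The mitochondrial pair differed little: *Txn2* was at 229 to 256 FPKM in KO and 217 to 247 FPKM in WT, and *Txnrd2* at 22.5 to 29.9 FPKM in KO and 23.4 to 31.8 FPKM in WT. Their log2 differences were 0.07 each, with intervals of -0.06 to 0.20 and -0.19 to 0.34.

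Stretches upstream of the transcription start are shown for *Txn1*, the lower member whose stretch is free of annotated exons, and for *Srxn1*, *Gclm* and *Nqo1*, which are known NRF2 targets. They were taken from RefSeq (GRCm38.p6), end at the last exon-free base before the start, and run 5′ to 3′ on the strand of the gene. Capitals mark matches to TGANNNNGC, a looser form of the core of the antioxidant response element that NRF2 binds, on either strand.
Txn1: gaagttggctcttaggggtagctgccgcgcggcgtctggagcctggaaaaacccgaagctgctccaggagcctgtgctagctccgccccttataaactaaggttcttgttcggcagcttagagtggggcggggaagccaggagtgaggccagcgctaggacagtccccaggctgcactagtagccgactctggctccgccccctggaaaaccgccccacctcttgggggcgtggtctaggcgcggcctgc
Srxn1: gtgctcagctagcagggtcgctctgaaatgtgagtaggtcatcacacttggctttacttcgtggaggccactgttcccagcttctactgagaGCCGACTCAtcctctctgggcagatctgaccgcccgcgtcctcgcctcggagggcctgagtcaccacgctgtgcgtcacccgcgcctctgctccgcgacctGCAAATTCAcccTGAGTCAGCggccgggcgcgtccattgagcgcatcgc
Gclm: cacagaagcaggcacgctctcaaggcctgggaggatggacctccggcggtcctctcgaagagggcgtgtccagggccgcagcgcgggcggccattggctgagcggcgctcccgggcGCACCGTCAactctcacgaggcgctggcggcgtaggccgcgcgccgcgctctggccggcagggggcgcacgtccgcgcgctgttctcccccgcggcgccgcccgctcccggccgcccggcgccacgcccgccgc
Nqo1: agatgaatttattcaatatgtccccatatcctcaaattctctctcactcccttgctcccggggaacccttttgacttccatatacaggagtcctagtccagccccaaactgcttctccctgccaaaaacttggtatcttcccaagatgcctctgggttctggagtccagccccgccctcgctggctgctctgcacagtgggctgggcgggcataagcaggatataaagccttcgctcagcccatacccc
The *Txn1* stretch is chr4:57956412-57956661 (minus strand) and holds 0 matches. The *Srxn1* stretch, chr2:152105274-152105515 (plus strand), holds 3. The *Gclm* stretch, chr3:122245307-122245556 (plus strand), holds 1, and the *Nqo1* stretch, chr8:107403207-107403455 (minus strand), holds 0. A RefSeq window of 300 bases was found for 34 of the 41 genes, with 41 windows in all, of which 16 (39.0%) had at least 1 match. Of all 32544 windows of that length in the RefSeq table, 41.4% had a match. Sequence outside these windows was not searched, so an element farther away would be missed.

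Among catalase and the glutathione peroxidases, all 6 differences were negative (62.5% of all genes). Of the 6, 1 gene, *Gpx3*, passed the test as lower (2.17% of all genes). *Gpx3* (chr11:54902453-54910377, plus strand) encodes the peroxidase that fat and kidney release into plasma. It was at 1237 and 1184 FPKM in KO females, at 736 and 629 FPKM in KO males, at 1772, 1598 and 1158 FPKM in WT females, and at 1346 and 1684 FPKM in WT males. The KO males were the lowest libraries, and the KO females overlapped the WT range, since WT female 3 lay below both. KO averaged 946 ± 309 FPKM (SD, n = 4) and WT 1512 ± 254 FPKM (n = 5), or 62.6% of WT. The log2 difference was -0.72 (SE 0.14, interval -1.05 to -0.39, limma adjusted p 0.0426). Leaving out WT male 1 kept the limma call (adjusted p 0.0388). Leaving out any 1 of the others ended it, at adjusted p 0.155 (KO female 1), 0.121 (KO female 2), 0.0514 (KO male 1), 0.0522 (KO male 2), 0.0846 (WT female 1), 0.103 (WT female 2), 0.0518 (WT female 3) and 0.127 (WT male 2). The call also ended with a pseudocount of 0.1 (0.0509) or 1 (0.0520), no filter (0.0776), median centring (0.0972), array weights (0.0940), no trend (0.0769), ordinary least squares (0.119) and no interaction term (0.0996).

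*Gpx7* (chr4:108400390-108406961, minus strand), which uses peroxide to help fold proteins in the endoplasmic reticulum, missed the threshold. The KO females had 2.00 and 2.47 FPKM and the KO males 2.62 and 2.16 FPKM, against 4.90, 3.96 and 3.48 FPKM in the WT females and 3.12 and 4.07 FPKM in the WT males. No KO library reached a WT library. The log2 difference was -0.73 (SE 0.16, limma adjusted p 0.0501). Without WT male 1 it was -0.82 and the limma adjusted p passed, at 0.0455, as it did with a mean of at least 1 FPKM (0.0422) and with no interaction term (0.0464). *Gpx4* was at 876 to 1050 FPKM in KO and 1022 to 1176 FPKM in WT (log2 difference -0.20, SE 0.08, limma adjusted p 0.183). Of its 50-base stretches 34.7% occur in another gene, mostly a pseudogene, which makes its level less certain. *Gpx1*, the main cytosolic glutathione peroxidase, was at 184 to 216 FPKM in KO and 200 to 244 FPKM in WT. *Cat*, the catalase of peroxisomes, was at 199 to 234 FPKM in KO and 201 to 264 FPKM in WT, with a log2 difference of -0.04 and an interval of -0.20 to 0.11. *Gpx8*, a membrane peroxidase of the endoplasmic reticulum, was the most variable of the group at 36.2 to 88.6 FPKM.

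**Figure D2:**
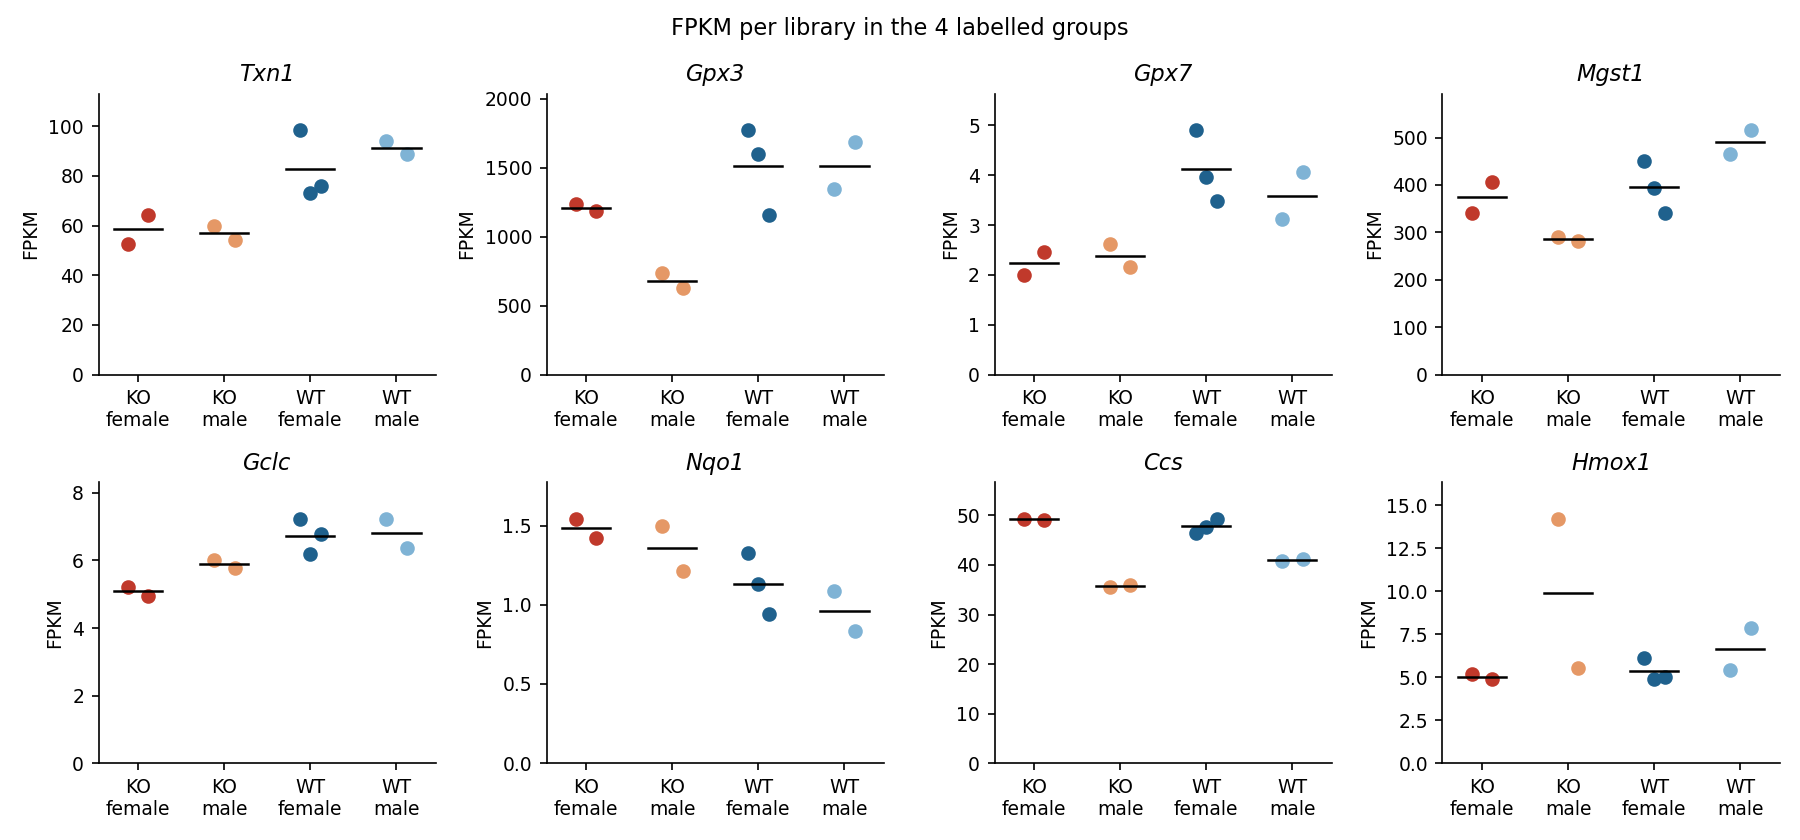
FPKM per library (points) and group mean (horizontal line) of 8 genes in the 4 labelled groups, 2 or 3 libraries each, with every vertical axis starting at 0. For *Txn1*, *Gpx7* and *Gclc* all KO points lie below all WT points, *Gpx3* and *Mgst1* are lowest in KO males, *Ccs* is lower in both male groups, and *Hmox1* has 1 high point, KO male 1 at 14.2 FPKM.

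Of the peroxiredoxins and sulfiredoxin, none of 7 genes passed the limma test. At an unadjusted p under 0.05, 2 were lower (14.2% of all genes), and 6 differences were negative (62.5% of all genes). *Prdx5*, a peroxiredoxin of mitochondria, peroxisomes and cytosol, came closest. The KO females had 428 and 452 FPKM and the KO males 343 and 376 FPKM, against 518, 456 and 506 FPKM in WT females and 477 and 433 FPKM in WT males. The KO males were lowest and KO female 2 lay above WT male 2. Its log2 difference was -0.25 (SE 0.07, limma adjusted p 0.0966), with 15.5% of its 50-base stretches shared, mainly with the neighbouring *Trmt112*. The cytosolic *Prdx2* was at 131 to 170 FPKM in KO and 170 to 210 FPKM in WT (-0.25, SE 0.10, limma adjusted p 0.218), with 12.0% of its 50-base stretches shared. *Prdx1*, *Prdx4* and *Prdx6*, of the cytosol, endoplasmic reticulum and cytosol, had log2 differences of -0.14, -0.11 and -0.12. *Prdx3*, the peroxiredoxin of the mitochondrial matrix, had KO and WT means of 183 ± 16.3 and 183 ± 17.7 FPKM. *Srxn1*, the enzyme that repairs over-oxidised peroxiredoxins and an NRF2 target, was the exception in sign. It was at 13.3 to 18.8 FPKM in KO and 13.4 to 15.0 FPKM in WT (0.21, SE 0.10, limma adjusted p 0.274).

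For the superoxide genes limma gave 0 calls and 0 genes at an unadjusted p under 0.05. Their differences were positive for 2 and negative for 2 (62.5% of all genes negative). *Sod2*, the manganese enzyme of the mitochondrial matrix, was at 157 to 187 FPKM in KO and 145 to 168 FPKM in WT. Its log2 difference was 0.13 (SE 0.07, interval -0.03 to 0.29, limma adjusted p 0.331), and 21.0% of its 50-base stretches are shared with other genes. *Sod3*, the secreted enzyme, had a difference of 0.15 (SE 0.09, limma adjusted p 0.387). For *Sod1* the difference was -0.05 with an interval of -0.27 to 0.17. *Ccs*, the chaperone that loads copper into SOD1, was at 35.6 to 49.3 FPKM in KO and 40.8 to 49.2 FPKM in WT, for a difference of -0.08. With the sexes averaged, the lower ends of the *Sod1* and *Sod2* intervals lie above the -0.59 of *Txn1*, whose own interval reaches -0.33. In males alone the *Sod1* interval ran from -0.59 to 0.06. The genes were not tested against each other.

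For glutathione synthesis and recycling, *Gclc* separated the labels without passing the test. *Gclc* (chr9:77754535-77794485, plus strand) encodes the catalytic subunit of the rate-limiting enzyme of glutathione synthesis. KO females were at 5.22 and 4.96 FPKM and KO males at 6.03 and 5.78 FPKM, against 7.22, 6.21 and 6.78 FPKM in WT females and 7.24 and 6.37 FPKM in WT males. All 4 KO libraries lay below the lowest WT library. The log2 difference was -0.30 (SE 0.09, interval -0.51 to -0.10, limma adjusted p 0.101). *Gclm*, the modifier subunit of the same enzyme, was at 7.05 to 9.34 FPKM in KO and 7.13 to 10.8 FPKM in WT, with a difference of -0.06. *Gsr*, the glutathione reductase, had a difference of 0.06 with an interval of -0.25 to 0.36.

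All 4 genes of the *Nfe2l2* pathway had positive differences, as did 5502 of all 14675 genes. Of the 4, 0 passed the limma test and 1 was higher at an unadjusted p under 0.05 (5.99% of all genes). *Nqo1* (chr8:107388225-107403206, minus strand) was at 1.54 and 1.42 FPKM in KO females, at 1.50 and 1.21 FPKM in KO males, at 1.32, 1.13 and 0.942 FPKM in WT females, and at 1.09 and 0.834 FPKM in WT males. Of the KO libraries 3 lay above every WT library, and KO male 2 lay below WT female 1. The log2 difference was 0.45 (SE 0.17, interval 0.05 to 0.85, limma adjusted p 0.193), the highest of the 41 genes. *Hmox1*, the haem-degrading enzyme that macrophages also express, was at 14.2 FPKM in KO male 1 and at 4.87 to 7.85 FPKM in the other 8 libraries. Its difference was 0.18 with KO male 1 and -0.16 without it (limma adjusted p 0.795 and 0.544), and KO male 1 is also the library with the highest macrophage marker sum. The part of those cells was not tested. *Nfe2l2* itself was at 19.6 to 25.8 FPKM and *Keap1* at 13.6 to 16.6 FPKM over all libraries. Their differences were 0.04 (interval -0.14 to 0.21) and 0.06 (interval -0.13 to 0.25), and without KO male 1 that of *Nfe2l2* was -0.04.

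Glutathione transferases, which attach glutathione to electrophiles, gave 3 positive and 8 negative differences among 11 genes (62.5% of all genes negative). Limma gave 0 calls, with 2 lower at an unadjusted p under 0.05 (14.2% of all genes). *Mgst1*, the microsomal transferase that also reduces lipid peroxides, came closest. It stood at 342 and 406 FPKM in KO females, at 290 and 281 FPKM in KO males, at 451, 394 and 340 FPKM in WT females, and at 465 and 515 FPKM in WT males. The KO males were lowest and the WT males highest, while the females of both labels overlapped. The log2 difference was -0.43 (SE 0.10, interval -0.66 to -0.19, limma adjusted p 0.0614). *Gstt1*, of the theta class, was at 20.1 to 29.4 FPKM in KO and 26.4 to 36.0 FPKM in WT (-0.27, SE 0.10, limma adjusted p 0.205). *Mgst3* was at 70.8 to 83.6 FPKM in KO and 78.2 to 137 FPKM in WT, where WT female 1 held the top value (-0.29, SE 0.16). The positive differences were those of *Gstm1* at 0.25 (SE 0.13), *Gsta4*, which acts on the lipid peroxidation product 4-hydroxynonenal, at 0.20 (SE 0.12), and *Gstk1*, the mitochondrial and peroxisomal transferase, at 0.03 (SE 0.09). *Gstm2*, *Gstm5*, *Gstp1* and *Gsto1* had differences of -0.13, -0.07, -0.09 and -0.07. *Gsta3* had an interval of -2.04 to 1.26, too wide to place it. *Gstm1* and *Gstp1* share 18.9% and 33.7% of their 50-base stretches with relatives and are less certain.

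Both metallothioneins, which bind zinc and copper and scavenge oxidants, varied widely within both labels, and limma gave 0 of 2 at an unadjusted p under 0.05. *Mt1* was at 460 and 515 FPKM in KO females, at 264 and 448 FPKM in KO males, at 384, 324 and 504 FPKM in WT females, and at 558 and 364 FPKM in WT males. The highest and lowest libraries, WT male 1 and KO male 1, were both males. *Mt2* had the same 2 libraries at its ends, at 184 and 36.6 FPKM, and 45.9% of its 50-base stretches are shared with another annotated gene. The log2 differences were -0.05 (interval -0.54 to 0.44) and -0.07 (interval -1.28 to 1.13), and without KO male 1 they were 0.14 and 0.40.

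**Figure D3:**
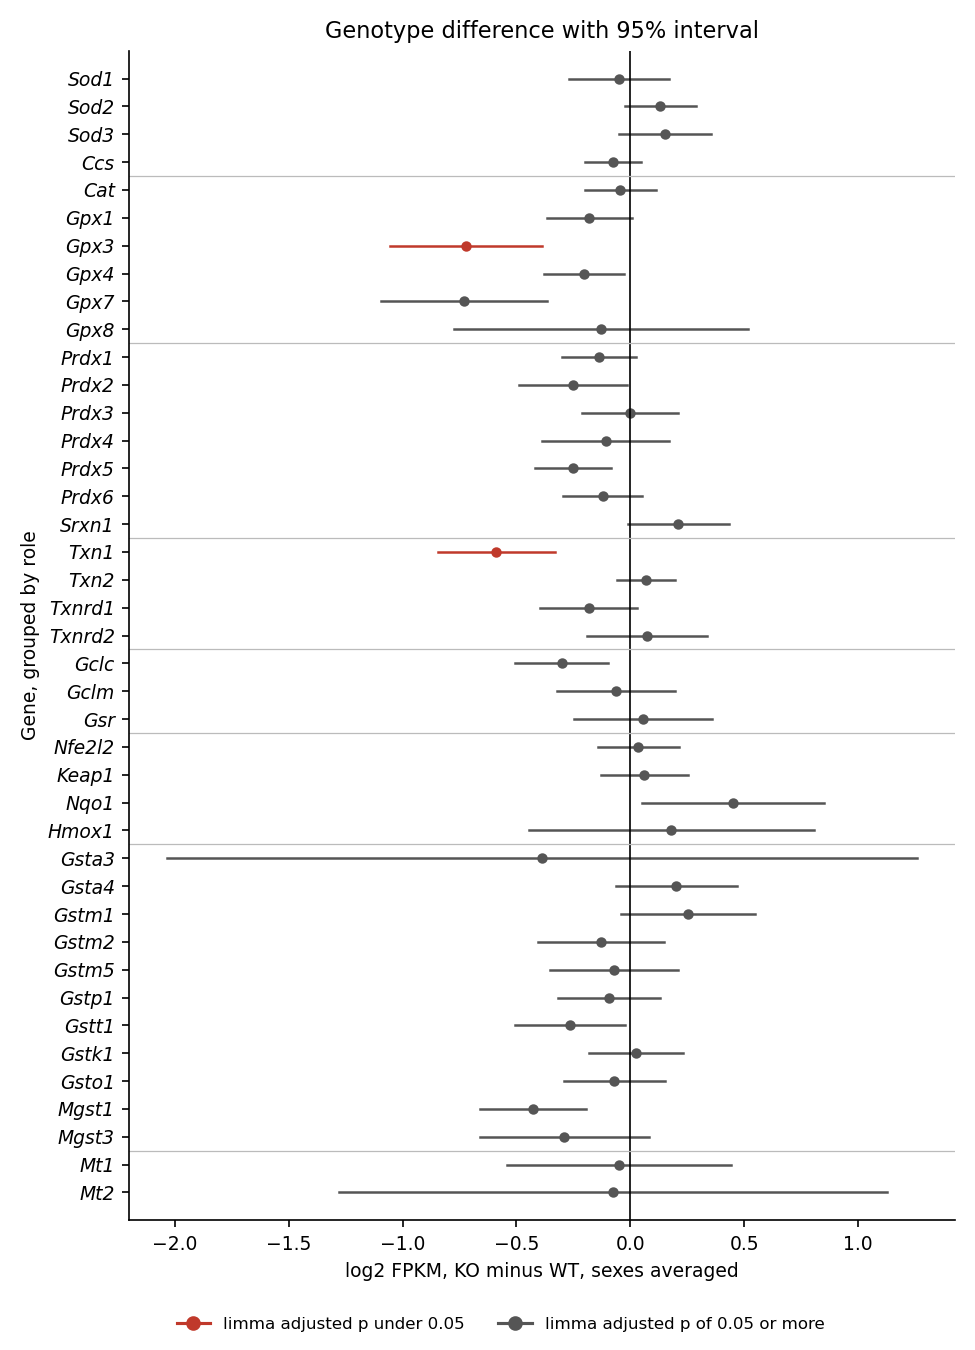
Log2 FPKM of KO minus WT, sexes averaged, for the 41 genes (points) with 95% intervals from limma (lines), grouped by role. Red marks the 2 genes with an adjusted p under 0.05, *Txn1* and *Gpx3*, both left of 0; the interval of *Gpx7* also lies left of 0, and those of *Gsta3* and *Mt2* are the widest.

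Split by sex, 0 of the 41 genes passed the limma test in females (0.0204% of all genes, 3 genes) and 0 in males (0.0136%, 2 genes). At an unadjusted p under 0.05, 5 members were higher (4.95% of all genes) and 3 lower (7.73%) in females, and 0 were higher (4.86%) and 9 lower (11.7%) in males. The female differences were negative for 18 of 41 members and for 60.2% of all genes, with medians of 0.04 and -0.07. With each library centred on its median, which shifts every gene alike, the female medians were 0.15 and 0.04. The gap of 0.11 between members and all genes was 0.03 with quantile normalization, 0.04 without KO female 2, 0.07 without WT female 2 and 0.19 without KO female 1. The male differences were negative for 34 of 41 members and for 60.1% of all genes, with medians of -0.20 and -0.08. Without KO male 1 the order turned, with medians of -0.15 for the members and -0.22 for all genes, 29 of 41 and 75.4% negative. Without WT male 1 both medians were -0.14, and without KO male 2 they were -0.20 and 0.02. Without WT male 2 they were -0.25 and -0.03, and with quantile normalization -0.14 and -0.07. Without KO male 2, which leaves KO male 1 as the only KO male, *Hmox1* was called higher in males (1.12, limma adjusted p 0.0374) among 1293 genes called in either direction.

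By sign, 17 members were negative in both sexes, 6 were positive in both, 17 were positive in females and negative in males, and only *Hmox1* was the reverse. *Txn1* had differences of -0.49 in females and -0.68 in males, and *Gpx7* of -0.87 and -0.58. *Gpx3* had -0.30 and -1.15 (limma adjusted p 0.571 in females, 0.0763 in males). *Mgst1* had -0.08 and -0.78 (limma adjusted p 0.865 in females, 0.0785 in males). All 4 superoxide genes were positive in females, from 0.04 for *Ccs* to 0.34 for *Sod3*, and 3 of them were negative in males.

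The difference between the sexes was itself tested as an interaction, the male minus the female genotype difference. Of the members 0 passed the limma test, as did 0 of all genes (0.0%), and 1028 of all genes had an unadjusted p under 0.05. Unadjusted, 5 members were below 0.05, all of them negative (5.03% of all genes, with 1.98% positive): *Mgst1* at -0.70 (SE 0.20, limma adjusted p 0.625), *Gpx3* at -0.85 (SE 0.29, 0.663), *Cat* at -0.40 (SE 0.13, 0.663), *Gstt1* at -0.54 (SE 0.21, 0.688) and *Gclm* at -0.52 (SE 0.22, 0.706). A negative interaction was found for 36 of 41 members (87.8%) and 51.3% of all genes, and the medians were -0.20 and -0.01. This gap of -0.18 depended on KO male 1. Without it the medians were -0.15 for the members and -0.13 for all genes, with 33 of 41 and 65.9% negative. Without KO male 2 they were -0.24 and 0.08, and limma then called 721 genes but still 0 members. The gap was -0.10 with quantile normalization, -0.11 without WT male 1, -0.12 without KO female 2, -0.29 without WT male 2 and -0.31 without KO female 1.

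**Figure D4:**
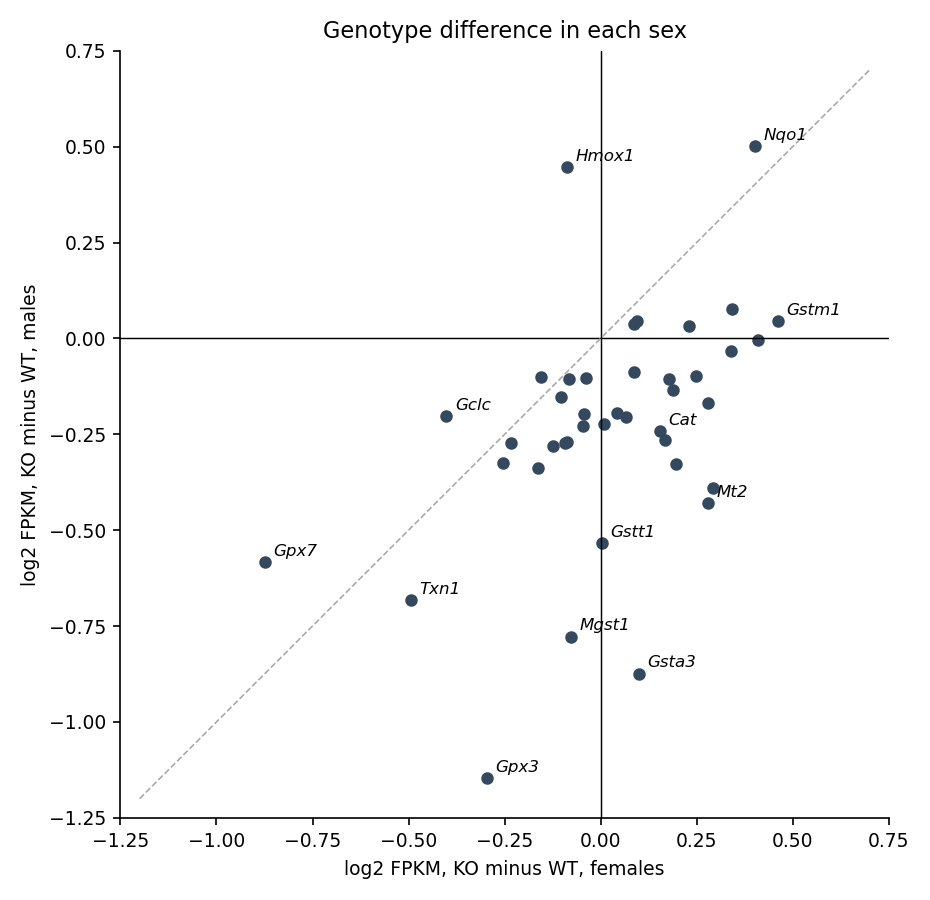
Log2 FPKM of KO minus WT in females (horizontal axis) and males (vertical axis) for the 41 genes, with a dashed line where both are equal. The 36 genes below the dashed line have a negative interaction, and *Gpx3*, *Mgst1* and *Gsta3* lie far below it while *Txn1* and *Gpx7* are negative on both axes.

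Males were compared with females over both genotypes in the same fit. None of the 41 genes passed the limma test (0.0136% of all genes, 2 genes). At an unadjusted p under 0.05, 5 were lower (7.09% of all genes) and 0 higher (3.36%). Differences were negative for 28 of 41 members (68.3%) and for 48.5% of all genes. With each library centred on its median these shares were 80.5% and 58.2%, and without KO male 1 they were 63.4% and 61.3%. *Ccs* was the single member whose 4 male libraries all lay below the 5 female ones (1.85% of all genes), and for 0 members did they all lie above (0.906%). Its female libraries held 46.4 to 49.3 FPKM and its male libraries 35.6 to 41.2 FPKM, and the KO males were the lowest. Its log2 difference was -0.34 (SE 0.05, limma adjusted p 0.136), and it was also -0.34 without KO male 1 or without KO male 2. *Prdx5* was next, at -0.21 (SE 0.07, limma adjusted p 0.394). The difference of *Hmox1* was 0.56 with all libraries, 0.90 without KO male 2 and 0.22 without KO male 1.

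The linear model described in the study's methods, whose genotype term is the female difference, was also run at an unadjusted p under 0.01. It gave 1 member, *Gclc*, lower in KO (3.43% of all genes, 503 genes). With male as the reference sex it gave 3 members, *Ccs*, *Gpx3* and *Mgst1*, among 777 of 14675 genes, 627 of them lower. With the sexes weighted equally by sum-to-zero coding it gave 6: *Ccs*, *Gclc*, *Gpx3*, *Gpx7*, *Prdx5* and *Txn1*. The genes called were then 1107 of 14675, with 805 of them lower. Every one of the members named was lower in KO, as were most of all genes called. The female term lost *Gclc* when either KO female, either KO male, WT female 1 or WT female 3 was left out, with *Nfe2l2* (without either KO male) or *Gstm1* (without WT female 1) higher instead. Without WT female 2 it gave *Gclc* lower and *Sod3* higher.

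Genes around these pathways were taken as lists and read beside the background of 2.17% lower and 1.43% higher. The lists were chosen with earlier results of these data known, so this comparison is descriptive only. Of the 17 oxidant-producing enzymes tested, 2 were lower in KO and 0 higher. *Xdh*, xanthine oxidoreductase, was at 14.4, 15.1, 14.0 and 13.6 FPKM in KO and 16.8 to 32.4 FPKM in WT, with no overlap (-0.67, SE 0.11, limma adjusted p 0.0347). *Aoc3*, an amine oxidase that releases hydrogen peroxide, was at 56.7, 59.2, 38.8 and 57.1 FPKM in KO and 78.3 to 107 FPKM in WT, with no overlap (-0.76, SE 0.14, limma adjusted p 0.0370). The list had a median difference of -0.15, and 12 of 17 were negative. Of 24 listed selenoproteins and genes of selenocysteine synthesis, only 17 matched a symbol and 16 were tested. Of these 16, 1 was lower, *Sephs2*, which makes the selenium donor used for *Gpx1*, *Gpx3* and *Gpx4* (KO 86.9 to 110 FPKM, WT 120 to 155 FPKM, -0.45, SE 0.09, limma adjusted p 0.0419). Of 13 zinc and copper genes, 1 was lower, the zinc importer *Slc39a1* (KO 23.2 to 25.2 FPKM, WT 28.4 to 31.8 FPKM, -0.34, SE 0.06, limma adjusted p 0.0352). All 4 had KO libraries entirely below WT libraries (6.04% of all genes). This adds no separate support, since the 4 were picked by their limma p in these same libraries.

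These 4 calls also depended on which libraries were kept, while the differences stayed negative. With each library left out in turn, the log2 difference ran from -0.77 to -0.56 for *Xdh* and from -0.90 to -0.62 for *Aoc3*. It ran from -0.49 to -0.39 for *Sephs2* and from -0.37 to -0.31 for *Slc39a1*. Leaving out each of the 9 libraries in turn kept 3 of 9 limma calls for *Xdh* and *Aoc3* (without KO male 1, KO male 2 or WT male 1) and 2 of 9 for *Sephs2* and *Slc39a1* (without KO male 2 or WT male 1). Left out in turn, KO female 1 gave the highest adjusted p of all 4, at 0.134, 0.149, 0.159 and 0.149. All 4 calls ended with median centring, array weights, no trend or ordinary least squares as well. The remaining lists had 0 calls by limma. Among 26 further NRF2 targets and partners (median -0.03), 1 was higher and 4 lower at an unadjusted p under 0.05. The same counts were 2 and 1 of 15 genes of NADPH supply (median 0.12), 2 and 2 of 25 other glutathione enzymes (-0.11), 1 and 6 of 23 other thioredoxin-fold and repair enzymes (-0.12), and 0 and 0 of 22 respiratory chain genes (-0.03). In NADPH supply, which feeds both reductases, 10 of 15 differences were positive, and 13 of 15 were in females. Of all 14675 genes, 5502 were positive with the sexes averaged and 5839 in females.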

How the data were processed

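RNA of 9 BAT samples was poly A+ selected, made into TruSeq libraries and sequenced as 50 bp read pairs (HiSeq2000 and HiSeq2500 are both named). Per the labels and methods, the authors used bcl2fastq 1.8.4, TopHat2 2.0.11 on mm10 (GRCm38) and Bowtie for abundances. The annotation they counted against is not given in the sources used here, and neither is a strand setting. The deposited values are FPKM per gene symbol, 1 file per library, with 24356 symbols, of which 25 stand as dates. Fragment totals are unknown, so relative depth was read from the steps among values of 0.001 to 0.15 FPKM, and no counting interval was computed.

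Log2 FPKM of the 14675 genes above 0 in every library, with no pseudocount, was fitted with limma 3.58.1 in R 4.3.3, with a mean for each group of sex and genotype, a mean-variance trend and Benjamini-Hochberg adjustment over all genes (threshold 0.05). The contrasts were genotype (sexes averaged, in females, in males), sex, and their interaction. The ordinary linear model of the methods (unadjusted p under 0.01) was run beside it, with female and KO set as reference here. Intervals are 95% from limma. The fit was tested on simulated data. Alternatives were pseudocounts of 0.1 and 1, a mean of at least 1 FPKM, no filter, median centring, quantile normalization, array weights, no trend, ordinary least squares, no interaction term, other codings, and each library left out. Where that leaves a group with 1 library, the library is assumed to vary like the other groups. The members and lists were chosen with earlier results of these data known. All 41 members are named, with up to 3 called genes of each pathway list with the lowest p, *Ghrh* and *Ucp1*. Of the listed pathway and marker symbols 9 had no match. Replicate numbers only follow the order of accessions. Each library is 1 animal, and none of the libraries were identical (0 pairs). All 9 matched their labelled sex.

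Positions and shared 50-base stretches come from GENCODE M21 (GRCm38). Upstream sequence comes from RefSeq (GRCm38.p6). Genes with over 10% of stretches shared (7 members) are called less certain. Figures were drawn with matplotlib 3.10.9 and the other steps run in Python 3.11.15 (numpy 2.4.6, pandas 2.3.3, scipy 1.17.1).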

Additional observations from a re-analysis of the deposited data

Results flagged for a closer look

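For each gene, the 4 KO and the 5 WT libraries were searched for a highest or lowest value far from the others, by the gap to its nearest neighbour over the whole range. Of 82 such groups 3 were past Dixon's 95% value (0.829 for 4 libraries), where chance flags about 1 in 20. *Hmox1*, the haem-degrading enzyme, stood at 14.2 FPKM in KO male 1 (ratio 0.876), above the other KO libraries. *Txnrd2*, the mitochondrial thioredoxin reductase, was at 22.5 FPKM in the same library (ratio 0.878), below the others. *Keap1*, the inhibitor of NRF2, was at 14.4 FPKM in KO female 1 (ratio 0.839), below the others. KO male 1 thus accounts for 2 of the 3. It also had the highest macrophage, lymphocyte, skeletal muscle and cycling cell marker sums, whose part in these values was not tested. No interaction among the members passed the test.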

How the results depend on the processing

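No paired analysis was possible because the labels carry animal numbers and no replicate number shared between groups. Of the 41 members, limma called 2 by genotype with the sexes averaged, 3 with a mean of at least 1 FPKM (640 genes in all), 1 with a pseudocount of 0.1 or of 1, and 0 with no filter, median centring, array weights, no trend or ordinary least squares, and leaving out a library gave 0 to 2. The cause was not tested. Over all genes the count of 529 became 170 (no filter), 222 (median centring), 55 (array weights), 34 (no trend) and 19 (ordinary least squares). Leaving out a library gave 8 (KO female 1) to 1105 (KO male 2). In females the 3 genes became 11 with a mean of at least 1 FPKM, 372 with array weights, 0 with no trend and 1 with ordinary least squares (0 to 19 without a library). In males the 2 became 0 with a pseudocount of 1, array weights, no trend or ordinary least squares, 19 with a mean of at least 1 FPKM, and 1 with no filter or quantile normalization (0 to 1293 without a library, members 0 to 1). By sex the 2 became 10 (no filter), 1 (median centring) and 8 (ordinary least squares, with 1 member, *Ccs*), and 1 to 803 without a library (members 0 to 2). The interaction ran from 0 to 721 genes without a library. The linear model of the methods gave 1 member and 503 genes, 3 and 777 with male reference, 6 and 1107 with sum-to-zero coding, and 0 to 2 and 225 to 553 without a library. Differences near 0 changed sign under median centring for *Sod1* (0.0098), *Cat* (0.014), *Mt1* (0.0095) and *Prdx3* (0.057), and for *Prdx3* also with quantile normalization (0.017) and no interaction term (0.0070). Without a library they ran through 0 for *Gpx8* (-0.33 to 0.079), *Prdx3* (-0.10 to 0.10), *Txnrd2* (-0.027 to 0.18), *Gclm* (-0.15 to 0.018), *Gsr* (-0.053 to 0.17), *Nfe2l2* (-0.039 to 0.11), *Hmox1* (-0.16 to 0.52), *Gsta3* (-0.97 to 0.19), *Gstm5* (-0.16 to 0.023), *Gstk1* (-0.048 to 0.10), *Mt1* (-0.24 to 0.14) and *Mt2* (-0.55 to 0.40). *Txn1*, *Gpx3*, *Gpx7*, *Mgst1* and *Gclc* stayed negative in all 19 alternatives, and *Nqo1* positive. Fragment totals are unknown, so the counting error behind each FPKM could not be given.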
